A study of Mus musculus with 4 samples.

Results

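Axon guidance ligands and their receptors were examined in mouse embryonic fibroblasts (MEF cells), connective tissue cells cultured from mouse embryos. The genes were chosen by symbol from the deposited count table: the semaphorins of classes 3 to 7, the plexins, the neuropilins Nrp1 and Nrp2, the Slits, the Robo receptors, the netrins, Dcc and the Unc5 receptors. The rule matched 46 of 47937 gene rows, made up of 26 ligands and 20 receptors. Ntn3 was not analysed here. All cells were wild-type MEF cells. The control group was untreated, and the other group received 50 µM genistein, a plant isoflavone known as an inhibitor of tyrosine kinases and topoisomerase II, for 24 h. Each group had 2 total RNA libraries, which held 28591958 to 31464284 counts over genes and repeats. The labels do not say whether the replicates were separate cultures, so p-values measure the spread between these libraries only, which may be technical. The labels call the controls untreated, and in other assays the study describes its untreated cells as given the solvent DMSO.

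Guidance cues were found as signals that attract or repel the growing tips of axons, and they also act on cell adhesion, migration and vessel growth outside the nervous system. Semaphorins signal through plexins, and most secreted class 3 semaphorins need a neuropilin as co-receptor. Slits are large secreted proteins that bind Robo receptors. Netrins are laminin-like proteins that attract through Dcc and repel through Unc5 receptors.

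Of the 46 genes, 43 had at least 1 count in some library and 34 had enough counts to be tested. After genistein exposure 18 of the 34 were higher and 10 were lower at an adjusted p-value under 0.05 (quasi-likelihood test of edgeR, adjusted by Benjamini-Hochberg over all genes and repeats). Across all 16240 genes tested, 33.5% were higher and 38.2% were lower, against 52.9% and 29.4% of the guidance genes. With the further thresholds of the study, a log2 fold change beyond 1 in size and a mean normalised count over 100, 3 guidance genes were higher (Robo3, Sema6c and Ntn4) and 1 was lower (Plxnb3). These thresholds were passed upward by 3.92% and downward by 4.16% of all genes tested. The median log2 fold change was 0.20 over the tested guidance genes and -0.03 over all genes tested. The libraries were bulk RNA, so fewer cells that express a gene and less of its RNA per cell cannot be told apart.

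**Figure D1:**
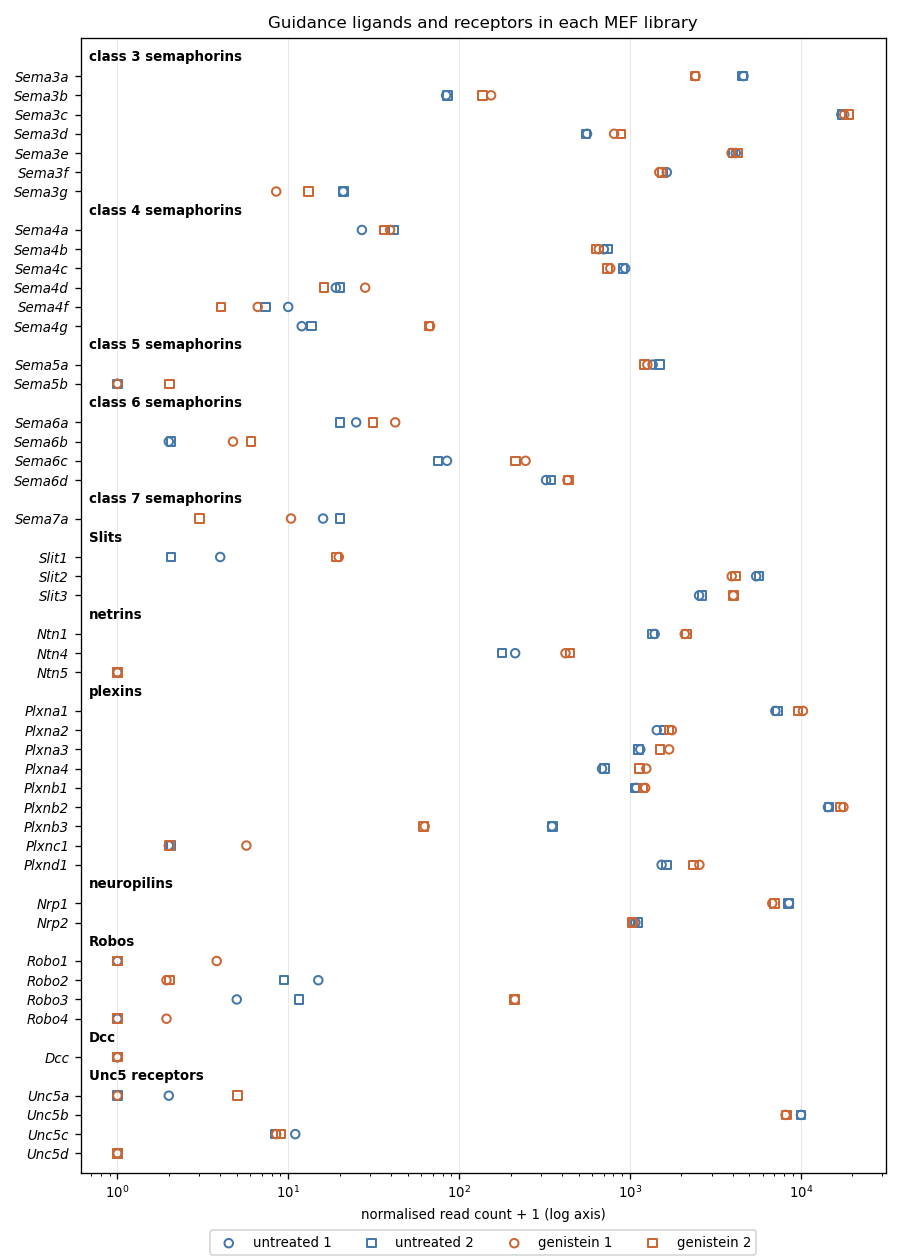
Normalised read count plus 1 of each of the 46 guidance genes (log axis) in untreated (blue) and genistein (orange) libraries, with 1 symbol per library and genes grouped by family. Robo3 moved from 4 and 10 raw counts to 225 and 207, Plxnb3 moved the opposite way, and Dcc, Ntn5 and Unc5d had no count in any library.

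The promoters of the 4 genes past all thresholds are given to show what lies upstream of the genes that changed most among those well covered. They run from 250 bases before to 50 bases after the first RefSeq start listed for each gene on GRCm38.p6. They are written 5′ to 3′ in the direction of the gene. Any further starts listed for a gene were not examined. The regions are chr9:37433126-37433425 on the - strand for Robo3, chr3:95160170-95160469 on the + strand for Sema6c, chr10:93640799-93641098 on the + strand for Ntn4 and chrX:73756853-73757152 on the + strand for Plxnb3. Capitals mark matches on either strand to the GC box GGGCGG or the CCAAT box CCAAT, which overlap at 1 place in Sema6c.
Robo3 promoter: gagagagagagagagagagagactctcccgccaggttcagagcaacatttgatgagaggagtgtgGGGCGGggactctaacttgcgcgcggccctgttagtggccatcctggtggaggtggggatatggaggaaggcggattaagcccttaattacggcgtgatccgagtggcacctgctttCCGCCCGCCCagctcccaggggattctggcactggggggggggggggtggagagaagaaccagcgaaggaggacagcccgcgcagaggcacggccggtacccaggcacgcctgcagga
Sema6c promoter: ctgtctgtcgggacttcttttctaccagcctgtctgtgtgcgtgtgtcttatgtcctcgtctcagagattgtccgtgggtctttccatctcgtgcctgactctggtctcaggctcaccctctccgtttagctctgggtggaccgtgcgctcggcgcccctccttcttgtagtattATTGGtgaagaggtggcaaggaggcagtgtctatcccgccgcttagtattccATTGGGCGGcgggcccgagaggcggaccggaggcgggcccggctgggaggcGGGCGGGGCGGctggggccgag
Ntn4 promoter: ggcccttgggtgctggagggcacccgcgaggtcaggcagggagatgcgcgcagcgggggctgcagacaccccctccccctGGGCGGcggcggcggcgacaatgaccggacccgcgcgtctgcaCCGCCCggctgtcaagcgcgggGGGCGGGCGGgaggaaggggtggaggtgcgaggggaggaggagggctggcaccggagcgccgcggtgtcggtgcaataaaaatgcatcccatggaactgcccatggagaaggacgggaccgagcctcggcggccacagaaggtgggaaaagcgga
Plxnb3 promoter: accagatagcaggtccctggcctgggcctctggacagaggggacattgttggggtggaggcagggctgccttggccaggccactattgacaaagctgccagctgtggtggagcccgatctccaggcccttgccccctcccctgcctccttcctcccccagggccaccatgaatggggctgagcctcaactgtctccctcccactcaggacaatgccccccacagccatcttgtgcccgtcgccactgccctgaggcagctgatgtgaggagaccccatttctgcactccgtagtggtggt

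The GC box was matched 3 times in Robo3, 3 times in Sema6c, 4 times in Ntn4 and 0 times in Plxnb3. The CCAAT box was matched 2 times in Sema6c and 0 times in the other 3 promoters. The TATA box TATAAA and the E-box CACGTG were matched in none of the 4. The CpG content of the Plxnb3 promoter, at 0.133 of the number expected from its base composition, lay below that of the other 3, which held 0.600 in Robo3, 0.790 in Sema6c and 0.839 in Ntn4. RefSeq promoters were found for 37 of the 46 guidance genes, 27 of them tested. Among these 27 promoters, 85.2% held a GC box and 7.41% a CCAAT box, beside 65.5% and 39.3% of the promoters of all 10022 tested genes with an entry. For the TATA box the shares were 3.70% and 6.87%, and for the E-box 7.41% and 10.3%. The motifs were chosen as common promoter elements with the changes known, and a match is a description of the letters only.

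Class 3 semaphorins, the secreted members, split in both directions. Sema3a, a repellent for sensory and other axons, had normalised counts of 4617 and 4568 without genistein against 2420 and 2396 with it. Both genistein libraries lay below both untreated libraries. Sema3a fell by 0.93 on the log2 scale (standard error, SE, 0.03, adjusted p = 7.2e-13, edgeR). Sema3g had 20 and 19 raw counts without genistein and 8 and 12 with it. It was also lower, with a log2 fold change of -1.03 and a standard error of 0.37 (adjusted p = 0.019, edgeR), but DESeq2 gave an adjusted p of 0.22. The Sema3g call was also lost without untreated 1 (-1.04, adjusted p = 0.075), untreated 2 (-1.03, adjusted p = 0.069) or genistein 1 (-0.71, adjusted p = 0.21) in edgeR. Sema3b and Sema3d rose. Sema3d had normalised counts of 559 and 551 without genistein against 806 and 887 with it, a log2 fold change of 0.61. Sema3b had 82.9 and 84.7 against 153 and 136, a log2 fold change of 0.79. The groups did not overlap for either gene.

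The other 3 class 3 semaphorins did not pass the test. Sema3c, which attracts cardiac neural crest cells in the embryo, was the most abundant guidance gene per length. Its normalised counts were 17254 and 17382 without genistein against 17934 and 19138 with it. The log2 fold change of Sema3c was 0.10 (SE 0.05, adjusted p = 0.080, edgeR), and it passed the test without genistein 1 (0.15, adjusted p = 0.0076) or when libraries were scaled by their totals (0.17, adjusted p = 0.014) or by genes alone (0.14, adjusted p = 0.011). Sema3e, which binds Plxnd1 directly without a neuropilin, had 4160 and 4018 normalised counts against 3929 and 4300. Its groups overlapped, and the log2 fold change was 0.01 ± 0.04 (SE). Sema3f, which acts mainly through Nrp2, had 1642 and 1552 against 1483 and 1540, a log2 fold change of -0.08 ± 0.05 (SE), and without untreated 2 it was -0.12 with an adjusted p of 0.049 in edgeR.

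The membrane-bound semaphorins of classes 4 to 7 gave 4 higher and 4 lower genes among 10 tested. These shares of 40.0% each lay near the 33.5% and 38.2% of all genes tested. All 3 tested class 6 semaphorins, transmembrane ligands of class A plexins, rose. Sema6c had 84 and 70 raw counts without genistein against 260 and 210 with it. The groups did not overlap, and Sema6c was 2.89-fold higher (log2 fold change 1.53, SE 0.13, adjusted p = 2.9e-08, edgeR). Sema6d had a log2 fold change of 0.38 ± 0.08 (SE), from 322 and 344 to 429 and 435 normalised counts. Sema6a, at 24 and 18 against 44 and 30 raw counts, had a log2 fold change of 0.73 ± 0.27 (SE) and an adjusted p of 0.025 in edgeR and of 0.26 in DESeq2. In edgeR the Sema6a value was 0.58 without untreated 2 (adjusted p = 0.12) and 0.50 without genistein 1 (adjusted p = 0.26). Sema6b had 1 and 1 raw counts against 4 and 5 and was not tested.

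In class 4, Sema4g rose and Sema4b and Sema4c fell. Sema4g, a ligand of Plxnb2, had 11 and 12 raw counts without genistein against 71 and 65 with it. It was 5.55-fold higher (log2 fold change 2.47, SE 0.25, adjusted p = 2.1e-07, edgeR), but its mean count lay below the study's threshold of 100. Sema4c, another Plxnb2 ligand, was far more abundant and had normalised counts of 936 and 908 against 766 and 736. Its log2 fold change was -0.30 ± 0.06 (SE). An RNA gene on the opposite strand shared 7.27% of the Sema4c exons and had 18 to 25 counts in a library. Sema4b had 702 and 740 normalised counts against 655 and 630, a log2 fold change of -0.17 (SE 0.06, adjusted p = 0.022, edgeR), and DESeq2 gave an adjusted p of 0.13. The Sema4b call was lost in edgeR without untreated 2 (-0.13, adjusted p = 0.14) or genistein 2 (-0.14, adjusted p = 0.088), and with scaling by library totals (-0.096, adjusted p = 0.17) or genes alone (-0.12, adjusted p = 0.085). Sema4a and Sema4d, which act on immune cells as well as axons, had overlapping groups. Sema4a had 26 and 38 raw counts against 41 and 35, a log2 fold change of 0.17 ± 0.25 (SE). Sema4d had 18 and 18 against 29 and 15, a log2 fold change of 0.21 ± 0.33 (SE). Sema4f had 3 to 9 raw counts in a library and was not tested.

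Sema5a, a transmembrane semaphorin that binds Plxnb3, had normalised counts of 1356 and 1492 without genistein against 1262 and 1216 with it. The groups did not overlap, and Sema5a was lower by a small amount (log2 fold change -0.20, SE 0.05, adjusted p = 0.0035, edgeR), with -0.13 and an adjusted p of 0.051 without untreated 2. Sema5b had 1 count in genistein 2 and 0 elsewhere. Sema7a, which is anchored by a lipid and binds Plxnc1 and integrins, had 15 and 18 raw counts against 10 and 2. Its log2 fold change was -1.52 (SE 0.50, adjusted p = 0.012, edgeR). That value rested on the library genistein 2, without which it was -0.85 with an adjusted p of 0.17 (edgeR), and without genistein 1 it was -2.98. Without untreated 2 it was -1.35 with an adjusted p of 0.069 in edgeR. DESeq2 gave an adjusted p of 0.12 for Sema7a.

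The Slits changed in opposite directions. Slit2 had normalised counts of 5473 and 5671 without genistein against 3938 and 4142 with it, while Slit3 had 2536 and 2634 against 4025 and 4025. No library of either gene overlapped the other group. Slit2 fell by 0.46 on the log2 scale (SE 0.04, adjusted p = 5.0e-09, edgeR), and Slit3 was higher by 0.64 (SE 0.04, adjusted p = 1.0e-10, edgeR). Slit1, the most neural of the Slits, had 3 and 1 raw counts without genistein against 20 and 18 with it. Its summed counts per library size were 9.00 times higher with genistein, with an exact 95% interval of 3.24 to 34.7 that covers counting error only. The fitted log2 fold change of Slit1 was 3.09 ± 0.54 (SE), and it lay between 2.57 and 3.97 when a library was left out. A ratio of raw counts within a library does not depend on scaling. In this pair, chosen after the values were seen, there were 0.463 and 0.464 Slit3 reads for each Slit2 read without genistein and 1.02 and 0.972 with it.

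Both tested netrins rose, where 33.5% of all genes tested were higher. Ntn1, the classical netrin, had normalised counts of 1394 and 1355 without genistein against 2090 and 2146 with it. The groups did not overlap, and the log2 fold change was 0.62 (SE 0.04, adjusted p = 1.4e-09, edgeR). Ntn4, a netrin of basement membranes that binds laminin, had 212 and 177 normalised counts against 418 and 443. It was 2.21-fold higher (log2 fold change 1.14, SE 0.10, adjusted p = 2.0e-08, edgeR). Ntn5 had 0 counts in all 4 libraries, which allows up to a level of 0.0940 to 0.106 CPM (a count scaled to a fixed library size) in a library.

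**Figure D2:**
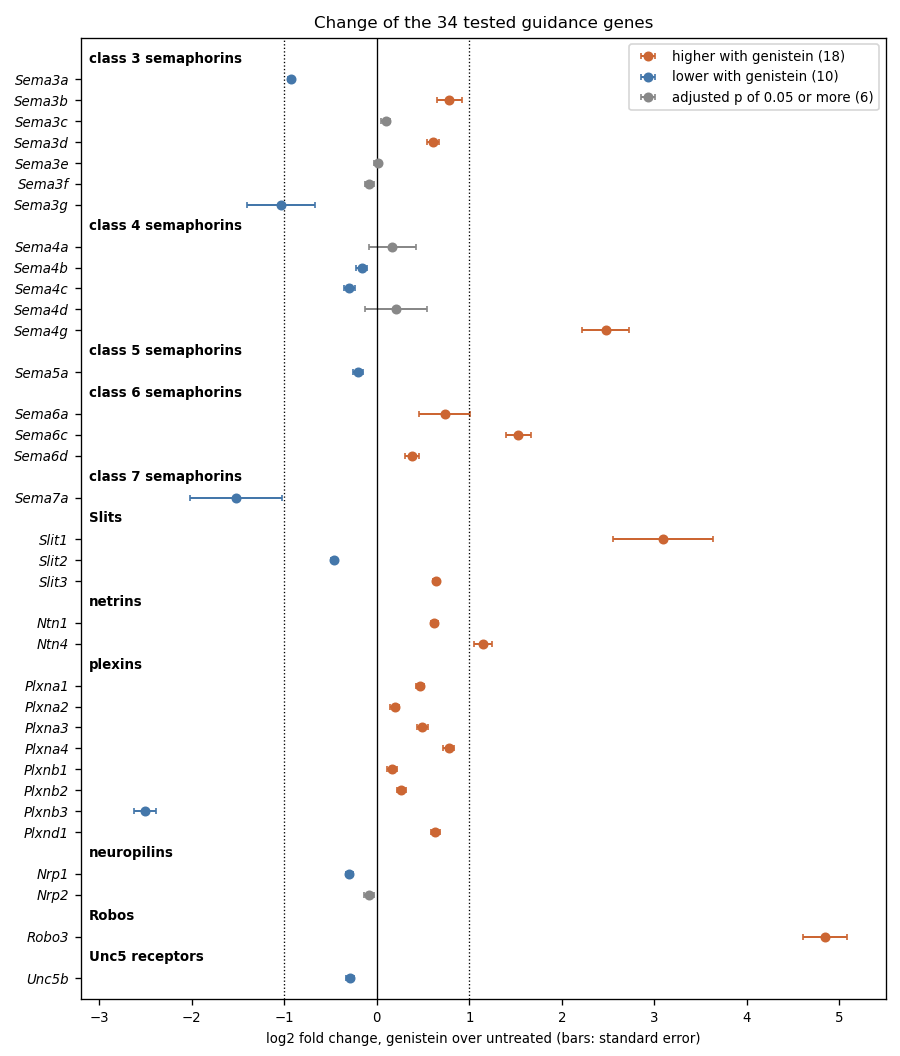
Log2 fold change of genistein over untreated for the 34 tested guidance genes by family, with standard errors as bars, orange for genes higher and blue for genes lower at an adjusted p-value under 0.05 and grey for the rest, and dotted lines at -1 and 1. All tested plexins lay to the right of 0 apart from Plxnb3 at -2.51, while the class 3 and class 4 semaphorins lay on both sides.

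Plexins, the signalling receptors of semaphorins, had 7 of 8 tested genes higher and 1 lower (87.5% and 12.5%). Across all genes tested, 33.5% were higher and 38.2% lower. All 4 class A plexins rose. Plxna4, which responds to class 3 and class 6 semaphorins, had normalised counts of 685 and 707 without genistein against 1245 and 1137 with it, a log2 fold change of 0.78 (SE 0.06, adjusted p = 7.4e-09, edgeR). Plxna1, the most abundant class A plexin, had 7091 and 7312 against 10288 and 9649, a log2 fold change of 0.47 (SE 0.04, adjusted p = 7.0e-08, edgeR). An antisense gene with 0 to 2 counts in a library shared 10.7% of the Plxna1 exons. Plxna3 had 1148 and 1119 against 1693 and 1493, a log2 fold change of 0.49 ± 0.06 (SE). Plxna2 had 1433 and 1585 against 1757 and 1693, a log2 fold change of 0.19 ± 0.05 (SE), and the call was lost without untreated 1 (0.12, adjusted p = 0.057, edgeR) and in DESeq2 (0.17, adjusted p = 0.052). The groups did not overlap for any of these 4 genes, nor did they for Sema3c, Sema3f and Nrp2, which did not pass the test. Plxnd1, the receptor of Sema3e in blood vessels, had 1530 and 1635 normalised counts against 2548 and 2356, a log2 fold change of 0.63 (SE 0.05, adjusted p = 4.3e-09, edgeR).

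Class B plexins, which bind class 4 semaphorins, were divided. Without genistein, Plxnb3 was counted at 349 and 350 normalised reads (mean 349.5 ± 1.27, SD, n = 2), and with it at 61.9 and 60.7 (mean 61.3 ± 0.818, SD, n = 2). The raw counts were 349 and 331 against 66 and 60. An SD from 2 libraries is uncertain, and these lay below the counting error of such counts. The groups did not overlap. Plxnb3 was 5.69-fold lower, with a log2 fold change of -2.51 and a standard error of 0.12 (adjusted p = 1.2e-11, edgeR). Plxnb2, a broadly expressed receptor, had 14402 and 14602 normalised counts against 17751 and 17098. It rose by 0.26 on the log2 scale (SE 0.05, adjusted p = 8.6e-05, edgeR). Plxnb1, the receptor of Sema4d, had 1086 and 1069 against 1227 and 1189, a log2 fold change of 0.16 ± 0.05 (SE), and its adjusted p was 0.0079 in edgeR and 0.16 in DESeq2. Reads of Plxnb2 outnumbered those of Plxnb3 by 41.3 and 41.7 to 1 without genistein and by 287 and 282 to 1 with it. Plxnc1, the Sema7a receptor, had 1 to 5 raw counts in a library and was not tested.

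The neuropilins did not follow the plexins. Nrp1, co-receptor for Sema3a and for vascular endothelial growth factor, had normalised counts of 8520 and 8474 without genistein against 6802 and 7027 with it. It fell by 0.30 on the log2 scale (SE 0.04, adjusted p = 3.3e-06, edgeR), and the groups did not overlap. Nrp2 had 1074 and 1115 normalised counts against 1044 and 1024, a log2 fold change of -0.08 (SE 0.05, adjusted p = 0.17, edgeR).

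Robo3 had the largest fold change of the tested guidance genes. This receptor is best known from commissural axons, where it governs crossing of the midline. It had 4 and 10 raw counts without genistein against 225 and 207 with it. Both genistein libraries lay far above both untreated libraries, at a mean of 210 ± 1.03 normalised counts against 7.29 ± 4.66 (SD, n = 2). The log2 fold change was 4.84 ± 0.24 (SE), a 28.7-fold increase (adjusted p = 2.3e-11, edgeR). The size depended on the untreated libraries, as the log2 fold change was 5.67 without untreated 2 and 4.29 without untreated 1. The ratio of summed counts had an exact 95% interval of 17.2 to 53.9 from counting error alone.

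The other Robo receptors were near the limit of detection. Robo2 had 14 and 8 raw counts without genistein against 1 and 1 with it, and was not tested. Its summed counts per library size were 11.6 times higher without genistein, with an exact 95% interval of 2.86 to 102 that covers counting error only. Robo1 had 3 counts in genistein 1 and 0 elsewhere. Robo4, an endothelial receptor whose gene lies next to Robo3 on chromosome 9 on the opposite strand, had 1 count in genistein 1 and 0 elsewhere. The family therefore consisted almost wholly of Robo3 reads after genistein exposure, which made up 98.7% and 99.8% of its summed per-length level, against 41.5% and 75.6% in the untreated libraries.

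Among Dcc and the Unc5 receptors, Unc5b was the only gene with enough counts for a test. Unc5b, a repulsive netrin receptor that also acts in vessels, had normalised counts of 10024 and 10040 without genistein against 8136 and 8257 with it. It fell by 0.29 on the log2 scale (SE 0.04, adjusted p = 8.3e-06, edgeR). Dcc and Unc5d had 0 counts in all 4 libraries. Unc5a had 0 to 4 and Unc5c 7 to 10 raw counts. Neo1, the Dcc relative that also binds netrins, was measured at 2812 and 2627 normalised counts against 2966 and 2888, a log2 fold change of 0.11 (SE 0.04, adjusted p = 0.025, edgeR). For each Ntn1 read there were 7.19 and 7.41 Unc5b reads without genistein and 3.89 and 3.85 with it.

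The families differed in their counts of higher and lower genes, which were compared without a test because members of a family are not replicates. Receptors gave 8 higher and 3 lower of 12 tested, with a median log2 fold change of 0.23. Of the 8 higher receptors 7 were plexins and 1 was Robo3, while Plxnb3, Nrp1 and Unc5b were lower and Nrp2 was not called. Ligands gave 10 higher and 7 lower of 22 tested, with a median of 0.19. These were 66.7% and 25.0% of the receptors and 45.5% and 31.8% of the ligands. Over all genes tested the shares were 33.5% and 38.2%. Summed over a family, plexins went from 27725 and 28380 normalised counts to 36575 and 34678, and netrins from 1605 and 1532 to 2508 and 2589. Class 6 semaphorins went from 431 and 438 to 718 and 683, and neuropilins went down from 9594 and 9589 to 7846 and 8051. The Slits, at 8013 and 8307 against 7982 and 8186, had nearly equal sums of read counts although each Slit had changed. Summed per length, as CPM per kilobase of annotated exon, the Slits rose from 21.2 and 22.0 to 27.5 and 27.7. Class 3 semaphorins also had overlapping sums, at 28335 and 28175 against 26733 and 28407.

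**Figure D3:**
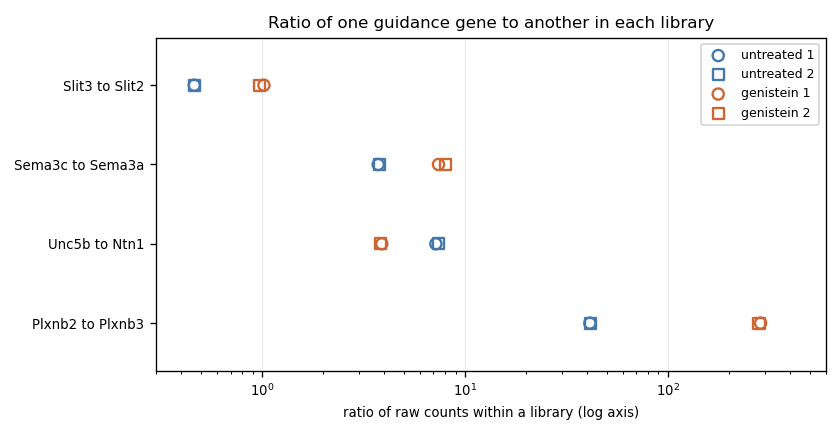
Ratio of the raw counts of 1 guidance gene to another within each library (log axis), for 4 pairs chosen after their values were seen, with circles and squares for replicates 1 and 2. In each pair the untreated (blue) and genistein (orange) libraries stand apart and the replicates lie close together, as for Slit3 to Slit2 at 0.463 and 0.464 against 1.02 and 0.972.

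Levels between genes were compared per length, as CPM per kilobase of annotated exon. The 5 most abundant guidance genes were Sema3c, Plxnb2, Unc5b, Nrp1 and Plxna1 in the untreated cells, and they held 69.6% of the summed level. Their mean levels were 81.1 for Sema3c, 62.8 for Plxnb2, 53.6 for Unc5b, 29.0 for Nrp1 and 26.6 for Plxna1. In the genistein libraries the top 5 genes held 68.0%. Plxna1 then reached 36.8 and Nrp1 23.6. These orders depended on the length used. With the longest annotated transcript in place of all exons, Nrp1 stood at 77.9 in the untreated libraries, above Plxnb2 at 74.6, and it lay above Plxna1 in both groups (77.9 against 26.6 without genistein, 63.4 against 36.9 with it). A level of at least 1 was reached by 24 guidance genes in the untreated and by 26 in the genistein libraries. Robo3 went from a mean level of 0.0356 to 1.03 and Plxnb3 from 1.80 to 0.316. Slit3 made up 66.0% of the summed Slit level in each untreated library and 80.8% and 80.0% in the genistein libraries. With the longest transcript, Slit2 (18.7) lay above Slit3 (16.5) in the untreated libraries and below it (13.6 against 25.7) in the genistein libraries. Within class 3, Sema3c held 67.1% and 68.0% without and 71.3% and 71.5% with genistein, while Sema3a went from 9.25% and 9.20% to 4.95% and 4.61%.

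**Figure D4:**
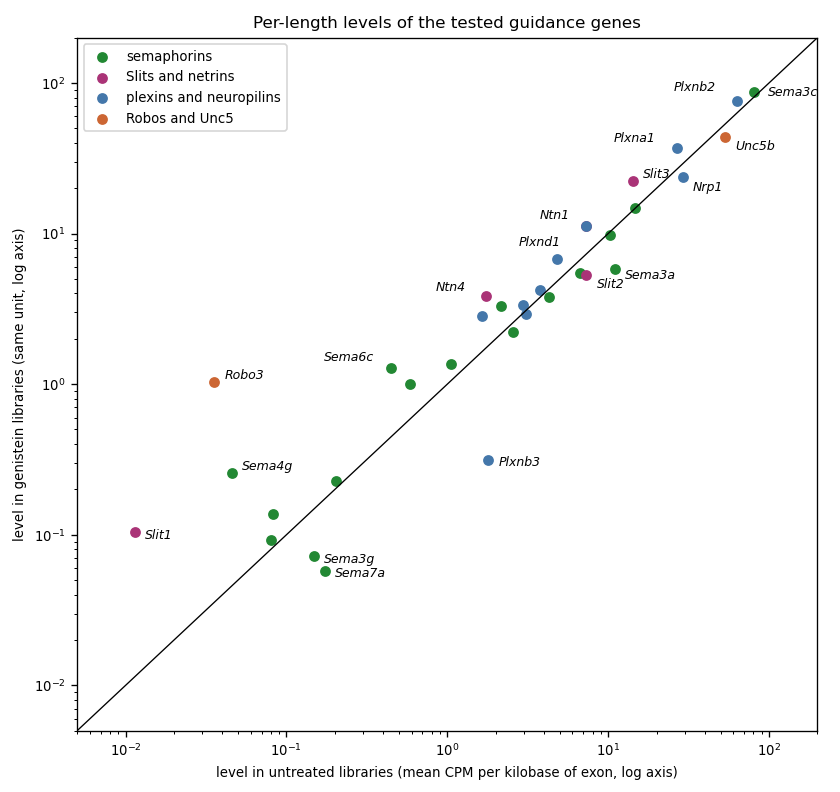
Mean level of each tested guidance gene in the untreated (x axis) and genistein (y axis) libraries, in CPM per kilobase on log axes, coloured by family, with a line where the levels are equal. The abundant genes such as Sema3c (81.1 and 86.8) lie near the line, and the largest departures are in genes of low level, such as Robo3 (0.0356 and 1.03) and Plxnb3 (1.80 and 0.316).

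Other axon guidance genes, from lists written from general knowledge, went in both directions. Of 93 listed genes 76 were tested, and 39 (51.3%) were higher and 22 (28.9%) lower with a median log2 fold change of 0.18. Over all genes tested, 33.5% were higher and 38.2% lower. Ephrins and Eph receptors gave 7 higher and 5 lower of 17 (41.2% and 29.4%). Other cues and receptors gave 5 and 5 of 13 (38.5% each), near the shares over all genes. Cytoplasmic effectors gave 27 and 12 of 46 (58.7% and 26.1%). Past all study thresholds were Srgap1, Srgap3, Flrt3 and Itga1, which were higher, and Efna2, which was lower. Srgap1 and Srgap3 encode signalling proteins that bind the intracellular part of Robo receptors. Srgap1 had 238 and 267 normalised counts against 1044 and 950 (log2 fold change 1.99, SE 0.08, adjusted p = 1.2e-12, edgeR). Srgap3 had 166 and 172 against 508 and 476 (log2 fold change 1.55, SE 0.09, adjusted p = 1.6e-10, edgeR). Srgap2, looked at after the values of its relatives were seen, had 1938 and 2125 against 3708 and 3671, a log2 fold change of 0.86 (SE 0.04, adjusted p = 2.3e-11, edgeR). All 3 genes of this family were thus higher, with no overlap of the groups.

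Flrt3, an adhesion protein that binds Unc5 receptors, had 221 and 169 normalised counts against 451 and 453 and a log2 fold change of 1.21. Itga1, a collagen-binding integrin subunit, had 97.9 and 93.2 against 180 and 209.5 and a log2 fold change of 1.02. Efna2, an ephrin anchored to the membrane, had 249 and 238 against 96.6 and 79.0 and a log2 fold change of -1.47. The standard errors of these 3 values were 0.10, 0.13 and 0.13.

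Guidance genes are long. The median span of the tested guidance genes, from the first to the last annotated base, was 87.8 kb, against 15.6 kb for all genes tested. With the limit of 100 kb chosen after the data were seen, 17 of the 34 lay above it, beside 10.4% of all genes. Among all genes over 100 kb, 54.6% were higher and 23.0% lower with genistein, while among shorter genes 31.0% were higher and 40.1% lower. The long guidance genes gave 9 higher and 4 lower, 52.9% and 23.5%. The 17 shorter guidance genes, Robo3, Plxnb3 and Sema6c among them, gave 9 higher and 6 lower, also 52.9% higher but 35.3% lower. The share of higher genes thus moved with gene length in the whole transcriptome, and the part of length in the changes of the guidance genes was not tested.

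Markers were used to check the labelled cell type. Of 14 fibroblast markers 12 were tested, with 2 higher and 8 lower (16.7% and 66.7%). Across all genes tested, 33.5% were higher and 38.2% lower. The summed fibroblast level was 1935 and 1968 without genistein and 1870 and 1837 with it. Col1a1, which encodes a collagen chain, had a mean level of 401 in the untreated libraries, although Thy1 was at 0 in every library. Of the 14 fibroblast markers, 3 (Thy1, Lum and Postn) were below a level of 1 in both groups. Of 12 neuron markers 7 were at 0 in every library (Elavl3, Nefl, Rbfox3, Snap25, Elavl4, Dcx and Gap43), and 11 were below a level of 1 in both groups. Tubb3 was the exception and had a log2 fold change of -0.22. Of 8 glia markers 7, and of 8 endothelial markers 7, were below a level of 1 in both groups, with Sox10, Olig2, Tie1 and Cldn5 at 0. The exceptions were Mbp, at a mean level of 3.52 without genistein and 3.28 with it, and Egfl7, at 1.30 and 1.09. Of 8 myeloid markers only Cd68 and Csf1r were tested, and they rose by 1.50 and 1.46 on the log2 scale. The summed myeloid level went from 3.11 and 2.92 to 7.80 and 7.98, while Adgre1, Aif1 and Tyrobp were at 0 in every library. All 3 tested epithelial markers of 8 fell, and the summed level went from 8.93 and 9.01 to 2.91 and 2.90, with Epcam and Esrp1 at 0. Krt8 was the highest of them, at a mean level of 6.90 without genistein and 2.07 with it. The part of these changes in those of the guidance genes was not tested.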

How the data were processed

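Total RNA libraries, depleted of ribosomal RNA, were made from MEF cells with and without genistein, 2 per group. The authors used Trim Galore for trimming, STAR for alignment to mm10 (multiply mapping reads were kept) and TEtranscripts for counting over genes and repeats. The deposited values are raw counts, not normalised. The library kit was stranded, but the strand setting of the counter was not stated, so exons shared with antisense genes are uncertain. Paralogs with near-identical stretches can share reads in such counting.

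The 1 row that named no gene or repeat made up 0.00208% to 0.00314% of each library and was left out. Counts were analysed with edgeR 4.0.16 in R 4.3.3. Genes and repeats with low counts were removed by filterByExpr, which kept 17358 rows, 16240 of them genes, and library sizes were scaled by TMM over these rows. Groups were compared with the quasi-likelihood test, two-sided, with Benjamini-Hochberg adjustment over all kept rows. The standard error (SE) was derived from the F statistic, as the absolute log2 fold change over its square root. Normalised counts are counts rescaled to the mean effective size of the 4 libraries. Symbols, exon lengths and coordinates came from GENCODE on GRCm38, the assembly of mm10, and promoters from RefSeq. Exact (Clopper-Pearson) intervals for ratios of summed counts cover counting error only, because without molecular identifiers PCR copies are counted as molecules. An exact permutation test of 2 libraries against 2 cannot go below 0.333. Groups without overlap are therefore given as a description only, and their share over all genes is not reported here.

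The replicates were treated as separate libraries, since their counts differed beyond sampling noise (chi-square over degrees of freedom 4.87 in the untreated and 11.0 in the genistein pair). The guidance genes, families and lists were chosen with earlier results of these data known. Every guidance gene is accounted for. Of the other guidance genes, the text names up to 6 higher and 6 lower past all study thresholds, and Neo1 and Srgap2 were added after their values were seen. The alternatives covered scaling, the filter, DESeq2 1.42.0, thresholds, gene length, a block for the replicate number and the omission of each library in turn. The test was checked only on simulated counts with large changes in well covered rows and the same dispersion for every row. That check does not cover small changes or genes with few counts. No table of protein sequences was used here.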

Additional observations from a re-analysis of the deposited data

How the results depend on the processing

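The 34 tested guidance genes were refitted under 10 alternatives, which gave 340 values. Of these, 310 kept their direction and their side of the threshold, 19 were no longer past it, 4 were newly past it and 7 changed sign. The 22 genes with no such change include Robo3, Plxnb3, Sema6c, Ntn4, Sema4g and the Slits. The number of guidance genes higher at an adjusted p-value under 0.05 lay between 15 (DESeq2) and 19, and the number lower between 8 and 11. The genes covered differed, with 34 guidance genes in the main fit, 37 in DESeq2 and 43 with no filter on low counts. Over all genes the calls moved too, with 3780 higher and 5319 lower of 17785 in DESeq2 against 5436 and 6210 of 16240. With the mean normalised count threshold lowered from 100 to 10, 5 guidance genes were past all thresholds upward and 3 downward, in place of 3 and 1. Sema3e changed sign with RLE size factors (-0.00048), with no filter on low counts (-0.017) and with DESeq2 (-0.016), and lay between -0.057 and 0.078 when a library was left out. Sema4a lay between -0.13 and 0.50 and Sema4d between -0.28 and 0.55 when a library was left out. Other losses of a call were in Plxna2, Plxnb1, Sema3g, Sema4b, Sema5a, Sema6a and Sema7a, and Sema3c and Sema3f were gained under some settings. Without either genistein library 2 genes were past all thresholds upward, since the mean normalised count of Robo3 over the other 3 libraries was 74.7 or 75.2. The median over all genes moved by less than 0.1 under any scaling, but it went from -0.033 to 0.037 with library totals. Under that scaling 6085 genes were higher and 5530 lower, in place of 5436 and 6210. Scaling by genes alone gave 5888 and 5830. Whether more of all genes were higher or lower thus depended on the scaling. With a replicate block, 18 guidance genes were higher and 10 lower, as without it. Deviations of same-numbered libraries correlated at -0.026, which gives no sign of pairing by replicate number, and the block changed no call of a guidance gene. Medians over few genes, such as those of class 3 and class 4 semaphorins, changed sign when a library was left out. The untested Robo2, Robo1, Robo4, Unc5a, Unc5c, Sema4f, Sema5b, Sema6b and Plxnc1, and Slit1, Sema3g and Sema7a, are limited by depth.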
